A study of Mus musculus with 48 samples.

Results

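The genes described here encode the nuclear-coded subunits of the mitochondrial respiratory chain and ATP synthase. They were taken by symbol: protein-coding nuclear genes whose names begin with Ndufa, Ndufb, Ndufc, Ndufs, Ndufv, Uqcr, Cox4i, Cox5, Cox6, Cox7, Cox8 or Atp5, together with Sdha, Sdhb, Sdhc, Sdhd, Cyc1 and Cycs. The rule found 96 of the 53700 genes in the table. Of these, 36 encode subunits of complex I, 4 of complex II, 9 of complex III, 19 of complex IV and 17 of ATP synthase, and 1 is cytochrome c. The prefixes also take in 10 assembly factors and related proteins (Ndufaf1 to Ndufaf8, Cox7a2l and Atp5s), which were kept apart from the subunits. Another 13 rows with these prefixes, 12 of them processed pseudogenes, are not annotated as protein coding and were left out.

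RNA was sequenced from the ventricles of 48 male C57BL/6 mice in 8 groups of 6. All Cre mice carry 1 transgene, Cre recombinase under the Myh6 (MHCα) promoter, which is active in heart muscle cells. CBK mice are Bmal1 flox/flox with Cre, CEK mice are E4bp4 flox/flox with Cre, and CBK/CEK mice are homozygous for both floxed genes and carry Cre. Their littermate controls carry the same floxed alleles without Cre and are called BMAL1 FLOX for CBK, E4BP4 FLOX for CEK and BMAL1/E4BP4 FLOX for CBK/CEK. Cre CON mice carry Cre and no floxed allele, and their littermates are WT. The sources used here give neither age nor the hour of collection. The comparison of interest was each Cre-positive group against its own littermates, and whether the chain's genes moved with loss of the clock activator Bmal1, of the transcriptional repressor E4bp4, or of both.

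Complexes I and II pass electrons from NADH and succinate to coenzyme Q, complex III passes them on to cytochrome c, and complex IV gives them to oxygen. Complexes I, III and IV pump protons across the inner mitochondrial membrane, and ATP synthase uses the return flow to make ATP. Most subunits are coded in the nucleus and imported, a few core subunits are coded by mitochondrial DNA, and heart muscle is among the tissues richest in all of them.

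Libraries held 13128833 to 28407868 assigned counts, except WT replicate 1 with 126338949. Levels are given as CPM, the count of a gene over the library's total scaled by the trimmed mean of M values. Bmal1 is listed as Arntl and E4bp4 as Nfil3. Nfil3 stood at 0.644 ± 0.095 CPM (SD, n = 6) in CEK against 8.07 ± 1.4 in E4BP4 FLOX, and at 1.84 ± 0.65 in CBK/CEK against 9.34 ± 1.65 in its control. Arntl was higher in CBK, at 8.40 ± 2.41 CPM against 1.04 ± 0.38 in BMAL1 FLOX, and in CBK/CEK, at 11.8 ± 0.89 CPM against 0.987 ± 0.33 in its control. A count over the whole gene does not resolve the floxed part, so the Arntl level checks nothing about the deletion. CBK replicates 3 and 5, CEK replicates 4 and 5 and BMAL1/E4BP4 FLOX replicate 6 stand apart in composition, as known from earlier results of these data. In all 48 libraries 0.509% to 34.8% of the assigned counts fell to 1 gene that the annotation used here does not name, highest in BMAL1/E4BP4 FLOX replicate 6 and next in CEK replicate 4 at 33.4%. It was high throughout the E4bp4 line, with medians of 9.29% in E4BP4 FLOX and 17.6% in CEK. The medians of the other groups lay between 0.668% and 2.28%. CEK replicates 1 and 6, not among the libraries that stand apart, held 18.4% and 24.4%, and CBK replicate 5 held 2.21%. The called members, the medians of the members and the calls on genes around the chain are given with and without these 5 libraries, other values mostly with all libraries. The part of this gene in the results was not tested. The members took 3.06% to 8.36% of the assigned counts.

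Few of the chain's genes were called in any line. The median SE over the members was 0.17 on the log2 scale in each line, so a member not called is not shown to be unchanged. With edgeR's quasi-likelihood test and Benjamini-Hochberg adjustment over the 16623 genes tested, 2 of the 93 members tested passed an adjusted p of 0.05 in CBK against BMAL1 FLOX, both lower. Over all genes tested 8.4% passed in this comparison, 4.05% higher and 4.35% lower. In CBK/CEK against BMAL1/E4BP4 FLOX 1 member passed, also lower, where 5.87% of all genes passed, 2.97% higher and 2.9% lower. In CEK against E4BP4 FLOX no member passed with edgeR, DESeq2 or limma's voom, where 0.307% of all genes passed with edgeR. In Cre CON against WT none passed either with edgeR, DESeq2 or voom, where 0.018% of all genes passed with edgeR. At an unadjusted p under 0.05, edgeR gave 8 members for CBK, 2 for CEK, 4 for CBK/CEK and 2 for Cre CON. Over all genes tested 18.7%, 11.4%, 16.1% and 3.65% had such a p in these comparisons. By voom these counts were 16, 2, 6 and 16 members, against 19.6%, 10.2%, 17.9% and 10.5% of all genes. The 3 members left out by the filter on low counts are Cox7b2, with 65 counts in all 48 libraries, and Cox8c and a second annotated copy of Atp5o, both with none. In bulk tissue, fewer cells of a type and less RNA per cell cannot be told apart.

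The median change of the members was small. The median log2 fold change over the 93 members was 0.07 for CBK, 0.04 for CEK, -0.09 for CBK/CEK and -0.13 for Cre CON, against medians over all genes tested of 0.00, 0.02, -0.02 and -0.01. The CBK median turned to -0.14 with voom, to -0.15 without CBK replicate 5 and to -0.19 without the 5 libraries that stand apart. The CEK median turned to -0.02 with voom, to -0.04 without CEK replicate 5 and to -0.08 without the 5 libraries. In CBK/CEK and Cre CON the median stayed below 0 under every alternative run, between -0.15 and -0.03 and between -0.14 and -0.11.

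**Figure D1:**
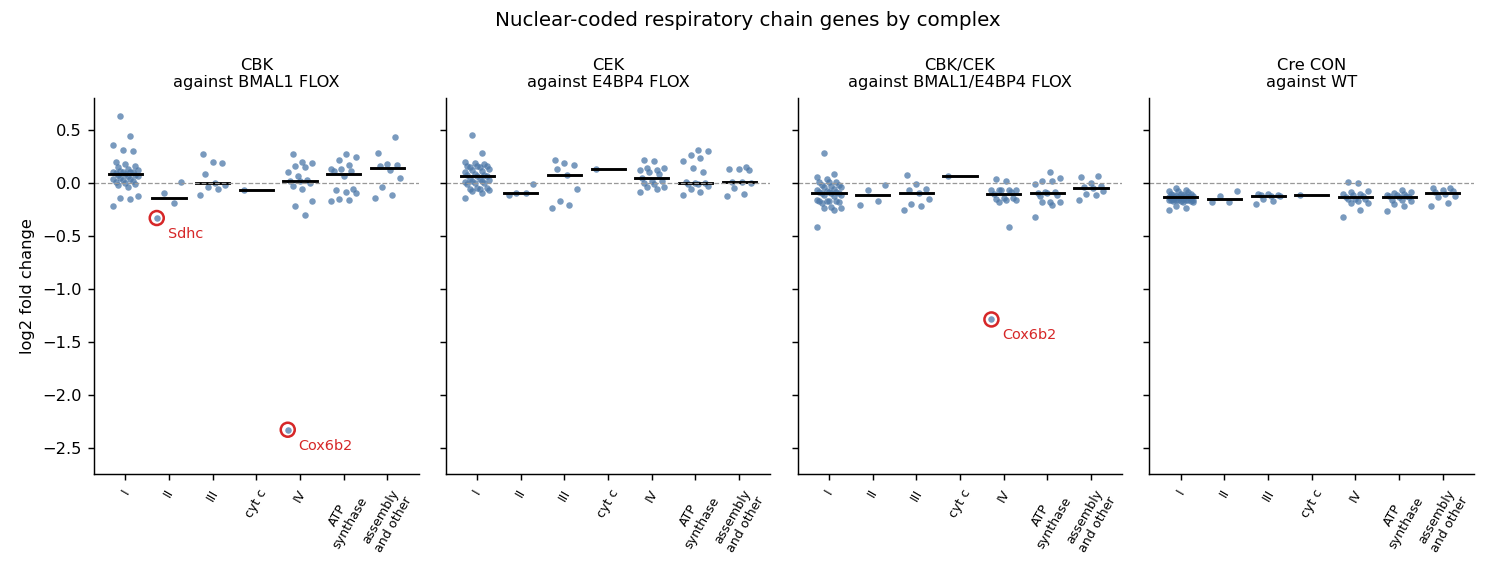
Log2 fold change of each of the 93 members tested (points), by complex on the horizontal axis, in the 4 comparisons of 6 against 6 libraries; black bars are medians and red rings mark members with an adjusted p under 0.05. Sdhc and Cox6b2 are ringed in CBK and Cox6b2 in CBK/CEK, and all other members lie between -0.42 and 0.63.

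Complex II has 4 subunits, all coded in the nucleus: Sdha carries the flavin, Sdhb the iron-sulfur clusters, and Sdhc and Sdhd anchor the complex in the membrane. Sdhc was lower in CBK. Its levels in CBK replicates 1 to 6 were 395, 460, 509, 397, 462 and 466 CPM, and in BMAL1 FLOX replicates 1 to 6 they were 523, 525, 587, 665, 516 and 570 CPM. All 6 CBK libraries lay below all 6 controls. The groups did not overlap for 2 of the 93 members in this comparison, against 4.2% of all genes tested. In CEK, CBK/CEK and Cre CON they overlapped for every member, against 0.77%, 3.53% and 0.608% of all genes without overlap. The log2 fold change of Sdhc was -0.33 (SE 0.09, adjusted p = 0.00584, edgeR). When the line's 12 libraries were fitted alone, the adjusted p was 0.0705 and Sdhc did not pass. Over all 26 alternatives the value lay between -0.38 and -0.28 and the adjusted p between 0.00319 and 0.0705. Without the 5 libraries that stand apart the value was -0.38 (SE 0.09, adjusted p = 0.00321, edgeR).

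Sdhc also stood at -0.18 (SE 0.09) in Cre CON against WT and at -0.17 (SE 0.09) in CBK/CEK, neither past the test. The CBK effect minus the Cre CON effect was -0.15 (SE 0.12, adjusted p = 0.775, edgeR), which did not pass. The BMAL1/E4BP4 FLOX controls stood at -0.21 (SE 0.09) against WT, with an unadjusted p of 0.0174 and an adjusted p of 0.639 by edgeR. The other 3 subunits did not pass in CBK: Sdha stood at -0.19 (SE 0.09), Sdhb at -0.10 (SE 0.13) and Sdhd at 0.00 (SE 0.08). In CEK the 4 values ran from -0.11 to -0.01, and in CBK/CEK from -0.21 to -0.02.

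Complex IV holds 3 subunits coded by mitochondrial DNA and a ring of nuclear-coded ones, several of which exist in tissue-specific forms. Cox6b2 is a form of subunit 6b best known from testis, and Cox6b1 is the form of most tissues. Cox6b2 was scarce in these hearts, with 2383 counts in all 48 libraries, and was lower in CBK and in CBK/CEK. It stood at 0.32, 1.24, 0.08, 0.47, 0.42 and 1.29 CPM in CBK replicates 1 to 6, from 9, 33, 2, 15, 10 and 32 counts. The BMAL1 FLOX libraries held 3.84, 2.00, 2.14, 3.81, 4.05 and 3.48 CPM. The lowest control was above the highest CBK library. The log2 fold change was -2.33 (SE 0.34, adjusted p = 1.05e-06, edgeR), and Cox6b2 passed in all 26 alternatives, between -2.65 and -1.95. The value nearest to 0, -1.95 (SE 0.35, adjusted p = 4.95e-05, edgeR), was that without the 5 libraries that stand apart.

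In CBK/CEK replicates 1 to 6 Cox6b2 stood at 0.58, 0.82, 1.20, 0.29, 0.86 and 1.14 CPM. The BMAL1/E4BP4 FLOX libraries held 2.66, 2.67, 2.02, 1.28, 0.90 and 2.66 CPM. Here the groups overlapped, through control replicate 5. The log2 fold change was -1.29 (SE 0.34, adjusted p = 0.0105, edgeR), and the adjusted p was 0.0528 when the line's 12 libraries were fitted alone. Without the 5 libraries that stand apart the value was -1.21 (SE 0.31, adjusted p = 0.0091, edgeR). In CEK the 6 libraries held 1.66 to 2.79 CPM against 1.85 to 3.46 in E4BP4 FLOX, and in Cre CON 1.94 to 2.65 CPM against 1.65 to 3.53 in WT. Neither of these comparisons passed. Cox6b1, at 702.98 CPM on average, stood at 444 to 1761 CPM in CBK against 572 to 901 CPM in BMAL1 FLOX.

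The Cox6b2 effects were also compared between lines. The CBK effect was lower than the Cre CON effect by a log2 difference of -2.18 (SE 0.47, adjusted p = 0.00248, edgeR), in a comparison where 2.47% of all genes passed. It was lower than the CEK effect by -2.27 (SE 0.47, adjusted p = 0.00121, edgeR), where 3.19% of all genes passed. Leaving out the 5 libraries that stand apart gave -1.80 (SE 0.44, adjusted p = 0.0115, edgeR) for the first difference and -1.77 (SE 0.46, adjusted p = 0.0207, edgeR) for the second. Cox6b2 was the 1 member to pass in each of these comparisons. CBK/CEK minus CBK was 1.04 (SE 0.48), with an adjusted p of 0.877 by edgeR. No member passed in CBK/CEK minus CBK, CBK/CEK minus Cre CON or CEK minus Cre CON by edgeR, DESeq2 or voom, where 0.162%, 1.34% and 0.00602% of all genes passed by edgeR. At an unadjusted p under 0.05 these comparisons held 1, 1 and 0 members, against 5.59%, 7.86% and 3.9% of all genes tested by edgeR.

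**Figure D2:**
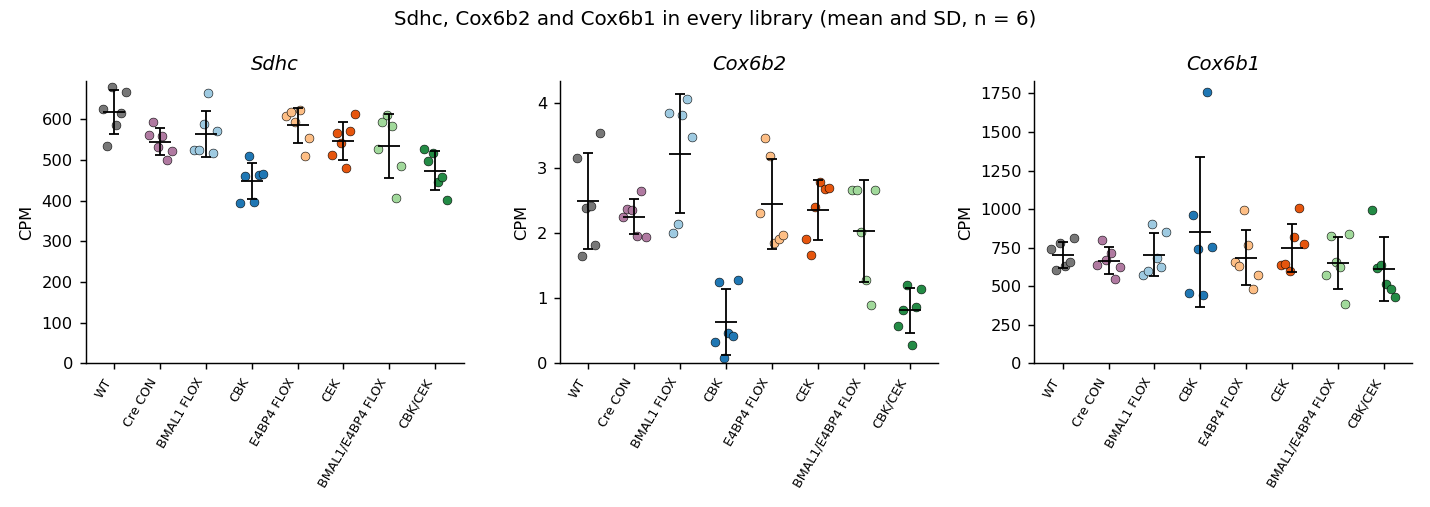
CPM of Sdhc, Cox6b2 and Cox6b1 in each of the 48 libraries (points), with the mean and SD of the 6 libraries of each group. Sdhc and Cox6b2 lie lower in CBK than in every BMAL1 FLOX library, Cox6b2 lies at 0.29 to 1.20 CPM in CBK/CEK, and Cox6b1 has its highest value, 1761 CPM, in CBK replicate 5.

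The bases before the Cox6b2 start site are shown because Cox6b2 is the member with the lowest fold change. They lie at chr7:4753095-4753344 of GRCm38.p6, minus strand, 250 bases up to the start site, from RefSeq.
Cox6b2: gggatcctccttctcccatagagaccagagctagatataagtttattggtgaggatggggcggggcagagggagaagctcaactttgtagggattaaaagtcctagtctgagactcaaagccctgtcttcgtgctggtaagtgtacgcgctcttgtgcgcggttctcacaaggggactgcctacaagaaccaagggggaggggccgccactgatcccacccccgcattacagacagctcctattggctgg
The whole 300-base window, which adds 50 bases after the start site, holds on neither strand the E-box CACGTG bound by BMAL1 with its partner CLOCK, nor the D-boxes TTATGTAA and TTACGTAA bound by E4BP4. It holds none of the other motifs searched, the palindromic motif of NRF1, AAGGTCA (estrogen-related receptors) and CCGGAAG (GABP and other ETS factors). A match or its lack describes these letters in this window and nothing of the factors.

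Windows of 300 bases were at hand for 77 of the members, and the E-box was found in 6 of 77 (7.79%) against 8.09% of 27025 genes. A D-box was found in 1 member, Cox7b (1.30%), against 1.11% of all genes for TTATGTAA and 0.126% for TTACGTAA. The motif of NRF1, a regulator of many respiratory genes, was found in 7 members (9.09%) against 1.07%, CCGGAAG in 18 (23.4%) against 9.93% and AAGGTCA in 8 (10.4%) against 5.38%. Of the 6 members with an E-box, 4 are shown with the E-box in capitals, chosen after their values were seen because the E-box lies well inside the window. Their coordinates in GRCm38.p6 are chr17:33824483-33824522 (plus strand), chr19:4012902-4012941, chr11:96075653-96075692 and chr9:44920867-44920906 (minus strand), in the order printed.
Ndufa7: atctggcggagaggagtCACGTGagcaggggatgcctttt
Ndufv1: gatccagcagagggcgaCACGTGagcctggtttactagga
Atp5g1: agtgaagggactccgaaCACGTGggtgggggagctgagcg
Atp5l: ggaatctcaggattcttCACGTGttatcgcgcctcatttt
The E-box begins at -72, -169, -44 and -147 from the start site. None of the 4 genes passed the test in CBK, where Ndufa7, an accessory subunit, stood at -0.01, Ndufv1, which binds NADH, at 0.07, Atp5g1, of the rotating ring of ATP synthase, at 0.13, and Atp5l, subunit g, at 0.12 on the log2 scale. The members with an E-box that are not shown, Atp5g3, of the same ring, and Atp5f1, of the peripheral stalk, stood at -0.05 and -0.16 in CBK and did not pass either.

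Complex I, which oxidises NADH, had no called member among its 36 in any line. Its members' log2 fold changes ran from -0.22 to 0.63 in CBK, from -0.15 to 0.45 in CEK, from -0.42 to 0.28 in CBK/CEK and from -0.26 to -0.05 in Cre CON. The lowest in CBK was Ndufs1, the largest iron-sulfur subunit. Its levels were 475, 440, 502, 517, 357 and 494 CPM in CBK and 572, 519, 467, 578, 590 and 518 CPM in BMAL1 FLOX. The groups overlapped, and the log2 fold change of -0.22 (SE 0.08) had an adjusted p of 0.0984 by edgeR, and of 0.0488 without BMAL1 FLOX replicate 3. Without CBK replicate 5 it stood at -0.14 (SE 0.08, adjusted p = 0.403, edgeR) and without the 5 libraries that stand apart at -0.15 (SE 0.08, adjusted p = 0.311, edgeR). Over all 26 alternatives its adjusted p ran from 0.0488 to 0.403.

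Ndufv3, a small accessory subunit of the module that oxidises NADH, had the highest log2 fold change in CBK, 0.63 (SE 0.24, adjusted p = 0.116, edgeR). It stood at 219, 498, 327, 227, 987 and 363 CPM in CBK and at 232, 249, 364, 249, 266 and 336 CPM in BMAL1 FLOX. The highest library was CBK replicate 5. Leaving out CBK replicate 1 raised the CBK count of called members from 2 to 5, of which 3 were higher: Ndufv3 at 0.78, Ndufa10, an accessory subunit, at 0.42 and Ndufaf2, an assembly factor, at 0.60. Leaving out CBK replicate 5 gave 3 called members, all lower, with Cox5a, a subunit at the core of complex IV, at -0.32. Ndufs7, which carries the iron-sulfur cluster nearest to coenzyme Q, stood at -0.42 (SE 0.18, adjusted p = 0.191, edgeR) in CBK/CEK. Its adjusted p ran over the alternatives from 0.0258 with voom to 0.447 without BMAL1/E4BP4 FLOX replicate 6, and was 0.0436 without CBK replicate 5.

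Ndufa4l2, the form of subunit Ndufa4 known to rise in hypoxia, had the lowest value but for Cox6b2 in CBK/CEK. It stood at 16.0, 19.1, 15.7, 13.7, 10.6 and 15.1 CPM in CBK/CEK and at 16.0, 20.1, 22.2, 19.0, 17.0 and 27.6 CPM in BMAL1/E4BP4 FLOX. The groups overlapped, and the log2 fold change was -0.42 (SE 0.16, adjusted p = 0.116, edgeR), with an adjusted p between 0.0706 and 0.341 over the alternatives.

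Complex III and cytochrome c had no called member among 10 in any line. In CEK the members with the smallest unadjusted p were Uqcrc1 and Uqcrc2, the core proteins of complex III, and Cyc1, its cytochrome c1. Uqcrc1 stood at 1334, 1483, 1434, 1476, 1562 and 1439 CPM in CEK and at 1783, 1697, 1925, 1850, 1548 and 1509 CPM in E4BP4 FLOX. The groups overlapped, and the log2 fold change was -0.24 (SE 0.10, adjusted p = 0.311, edgeR). Uqcrc2 stood at -0.21 (SE 0.09) and Cyc1 at -0.17 (SE 0.09), with adjusted p of 0.355 and 0.511 by edgeR. Uqcrc2 stood at -0.11 (SE 0.08, adjusted p = 0.708, edgeR) without the 5 libraries that stand apart. Uqcrc1 stood at -0.20 (SE 0.10) and the Rieske protein Uqcrfs1 at -0.16 (SE 0.08) in Cre CON against WT, each with an adjusted p of 1 by edgeR. Cycs, cytochrome c itself, stood at -0.07, 0.13, 0.06 and -0.12 in CBK, CEK, CBK/CEK and Cre CON, each with an SE of 0.11.

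ATP synthase had no called member among the 16 tested in any line. The log2 fold changes ran from -0.17 to 0.27 in CBK, from -0.11 to 0.31 in CEK, from -0.33 to 0.11 in CBK/CEK and from -0.27 to -0.06 in Cre CON. The catalytic pair Atp5a1 and Atp5b had the smallest spread between libraries of a group of all members, with SDs of 0.09 and 0.10 on the log2 scale. Among the 10 assembly factors and related proteins none was called, with values from -0.14 to 0.43 in CBK and from -0.13 to 0.15 in CEK.

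No member passed in Cre CON against WT, where most values lay slightly below 0. In Cre CON against WT 91 of 93 members had a log2 fold change below 0, against 52.9% of all genes tested, and the medians of the 5 complexes lay between -0.15 and -0.12. The exceptions were the ubiquitous forms Cox6a1 and Cox8a, at 0.00 and 0.01. At an unadjusted p under 0.05 voom gave 16 members, against 10.5% of all genes tested. Since the members rise and fall together between libraries, the 91 values are not independent of each other.

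Summed markers of some of the heart's cell types differed between Cre CON and WT. The 10 cardiomyocyte markers summed to 61154 to 70553 CPM in Cre CON and to 69219.5 to 79099 CPM in WT, overlapping, with a median log2 fold change of -0.15. The 8 fibroblast markers summed to 1257.72 to 1603.77 CPM in Cre CON and to 981 to 1257.05 CPM in WT, and the 7 macrophage markers to 188 to 249 CPM and to 159.3 to 186 CPM. For both lists every Cre CON library lay above every WT library, only narrowly for the fibroblast markers, with medians of 0.24 and 0.37. The 6 mural cell markers summed to 708 to 1045 CPM against 650 to 747 CPM, overlapping, with a median of 0.42. No gene of these 4 lists passed the test, and their part in the members' values was not tested. The sums of the remaining lists overlapped between the groups as well. Endothelial and erythroid sums had lower medians in Cre CON, 1172 against 1247 CPM and 494 against 637 CPM. Lymphocyte, atrial, adipocyte and skeletal muscle sums had higher medians in Cre CON.

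No member passed in the 3 floxed control groups against WT by edgeR, DESeq2 or voom, where 0.265% of all genes passed by edgeR for BMAL1 FLOX, 0.0% for E4BP4 FLOX and 0.283% for BMAL1/E4BP4 FLOX. At an unadjusted p under 0.05, edgeR gave 1, 0 and 2 members in these comparisons, against 4.6%, 6.29% and 6.71% of all genes tested. With voom the counts were 1, 7 and 5 members, against 9.95%, 13% and 9.79% of all genes.

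Per kilobase of annotated exon, the levels of the subunits of a complex differed widely. The highest complex I level was that of Ndufb10, an accessory subunit, at 613 CPM per kb over the 48 libraries, and the lowest that of Ndufb2 at 0.90. In complex II Sdhb stood highest at 428 CPM per kb and Sdhc lowest at 166. In complex III the Rieske protein Uqcrfs1 stood highest at 638 CPM per kb and Uqcrc2 lowest at 245. In complex IV the muscle form Cox6a2 stood highest at 1796 CPM per kb, and the testis forms Cox6b2, at 1.83, Cox7b2, at 0.0846, and Cox8c, with no count, stood lowest. In ATP synthase Atp5a1 and Atp5b, the subunits of the catalytic head, stood at 1370 and 1308 CPM per kb, and Atp5l was the lowest with counts, at 2.08. Among the assembly factors and related proteins Cox7a2l, which joins complexes III and IV into supercomplexes, stood highest at 155 CPM per kb and Ndufaf2 lowest at 7.45. Divided by the length of the principal transcript instead, a choice made after the values were seen, the highest were Atp5b at 2892 CPM per kb in ATP synthase, Cox4i1 at 2250 in complex IV and Uqcrh, the hinge protein, at 1176 in complex III. Ndufb10 and Sdhb remained highest in complexes I and II. For the low values of Ndufb2 and Atp5l the annotated exons span 5628 and 6443 bases, and the principal transcripts 2413 and 544. Their values per kb thus depend on the length used. Not divided by length, Ndufb2 averaged 5.07 CPM and Atp5l 13.4 CPM. Over 10% of the exonic bases of 13 members, Atp5o and Ndufaf2 among them, lie in an overlapping gene, and over 10% of the 75-base words of 19 members occur in another gene, so reads of these may be counted elsewhere or left out. For Atp5l 6.16% and for Ndufb2 3.97% of these words, taken over all annotated transcripts, occur in another gene. Whether reads of these 2 genes were lost was not tested.

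The muscle forms exceeded the general forms of the same subunits in all 48 libraries. Cox6a2 exceeded Cox6a1, the form of most tissues, by a mean log2 CPM ratio of 3.78 to 4.21 over the 8 groups. Cox8b exceeded Cox8a by 1.64 to 2.02 and Cox7a1 exceeded Cox7a2 by 0.39 to 0.78. Cox4i2, a form known from lung, was below Cox4i1 by a log2 CPM ratio between -7.42 and -7.18, and Ndufa4l2 was below Ndufa4 by between -5.45 and -5.11. These ratios are not per length. Of 24 tests of these pairs and of Cox6b2 against Cox6b1, 6 pairs in 4 lines, none passed an exact two-sided permutation test after Benjamini-Hochberg adjustment. The lowest was the Cox6b2/Cox6b1 ratio in CBK, at -9.50 ± 0.89 (SD, n = 6) against -7.59 ± 0.53 in BMAL1 FLOX, with an exact p of 0.00216, the smallest that 6 against 6 can give, and an adjusted p of 0.0519. A single ratio at that smallest p cannot pass alone among 24 tests. The lack of a pass therefore does not show that the ratios were unchanged. In CBK/CEK the difference in this ratio was -0.82, with an exact permutation p of 0.013 and an adjusted p of 0.156.

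The summed levels of each complex overlapped between CBK and its controls. Complex I summed to 5386 to 16798 CPM per kb in CBK with a median of 7913, and to 7245 to 9943 with a median of 7755 in BMAL1 FLOX. Complex IV summed to 5156 to 19400 CPM per kb in CBK, median 8274, and to 7771 to 11171 in BMAL1 FLOX, median 8264. ATP synthase summed to 5171 to 11050 CPM per kb in CBK, median 6920, and to 6614 to 7993 in BMAL1 FLOX, median 7046. For complex II the range was narrower, 1094 to 1415 CPM per kb in CBK, median 1327, and 1304 to 1503 in BMAL1 FLOX, median 1371. CBK replicate 5 held the highest CBK sum of all 5 complexes, and CBK replicates 1 and 4 held the lowest. In the other 6 groups the medians of complex I lay between 6686, in CBK/CEK, and 7779, in WT.

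**Figure D3:**
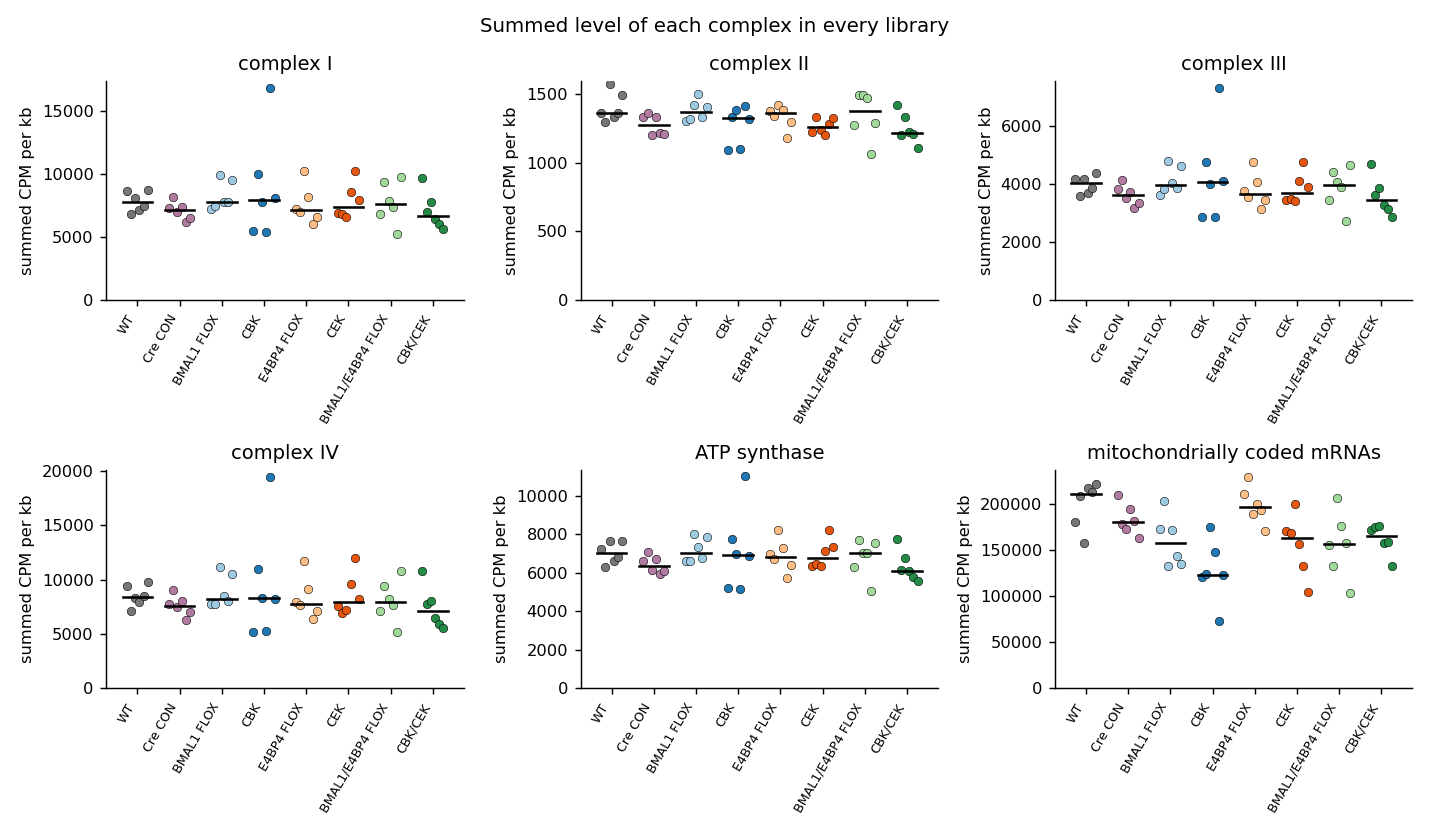
Summed CPM per kilobase of the nuclear-coded subunits of each complex, and of the 13 mitochondrially coded mRNAs, in each of the 48 libraries (points) by group; bars are group medians. CBK replicate 5 stands at the top of the complex I, III, IV and ATP synthase panels and at the bottom of the mitochondrially coded panel, at 73477.

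The members rose and fell together from library to library within a group. Over the 79 members with a mean of at least 50 CPM, the median correlation between 2 members' deviations from their group means was 0.87, against 0.04 over all 2442 genes with that mean. Without the 5 libraries that stand apart it was 0.86. The 48 libraries are shared by all pairs, so this describes these libraries. CBK replicate 5 lay above its group mean in 76 of the 79 members, with a median deviation of 0.88 on the log2 scale. CBK replicates 1 and 4 lay above it in 2 and 3 members, with medians of -0.56 and -0.58. BMAL1/E4BP4 FLOX replicate 5 followed at -0.50, and CBK/CEK replicate 1 stood at 0.49, E4BP4 FLOX replicate 3 at 0.42 and CEK replicate 5 at 0.38. Of these 7 libraries, 2 carry no Cre.

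Members with short mRNAs varied most. The spread between libraries of a group was smallest for Atp5a1 and Atp5b, and small for Uqcrfs1 at 0.13 and for Sdhd, Ndufs1 and Sdhc at 0.14 (SD, log2), all with principal transcripts of over 1200 bases. It was largest for Atp5o at 0.55, Atp5k, subunit e of ATP synthase, at 0.51, Ndufa2 and the muscle form Cox8b at 0.48, Atp5e, subunit epsilon, and Ndufb9 at 0.47, and the muscle form Cox7a1 at 0.45. Of these Atp5k has a principal transcript of 371 bases, Cox8b of 360 and Cox7a1 of 393. Over the 75 members with at least 50 CPM and an annotated principal transcript, length and SD had a Spearman rho of -0.67, and length and the deviation in CBK replicate 5 had a rho of -0.62. The median SD was 0.36 for the 47 members of up to 1000 bases and 0.20 for the 28 longer ones.

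The same pattern held for other genes. Over the 192 other genes of at least 50 CPM with a principal transcript of up to 1000 bases, the median SD was 0.31, and over 1526 longer ones 0.16. The median deviation of a library over the 75 members and its median deviation over the short other genes had a Pearson r of 0.99 and a Spearman rho of 0.98 over the 48 libraries, with r still 0.98 without the 2 libraries farthest from the median. With the longer other genes r was -0.05 and rho 0.02. CBK replicate 5 had the highest median over short other genes, at 0.82, and CBK replicate 4 the lowest, at -0.52, while the longer other genes lay between -0.08 and 0.07 in all libraries. Members of over 1000 bases moved more than that, from -0.39 in BMAL1/E4BP4 FLOX replicate 5 to 0.51 in CBK replicate 5. Shorter members ran from -0.69 in CBK replicate 1 to 1.11 in CBK replicate 5. The split at 1000 bases was made after the values were seen. These libraries are the points of both measures, RNA integrity values were not used here, and the part of transcript length in the CBK results was not tested. Sdhc has a principal transcript of 3171 bases. Cox6b2 has a short one, of 553 bases, and a within-group SD of 0.40. Cox6b2 lies under 50 CPM, so it is not among the 75.

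**Figure D4:**
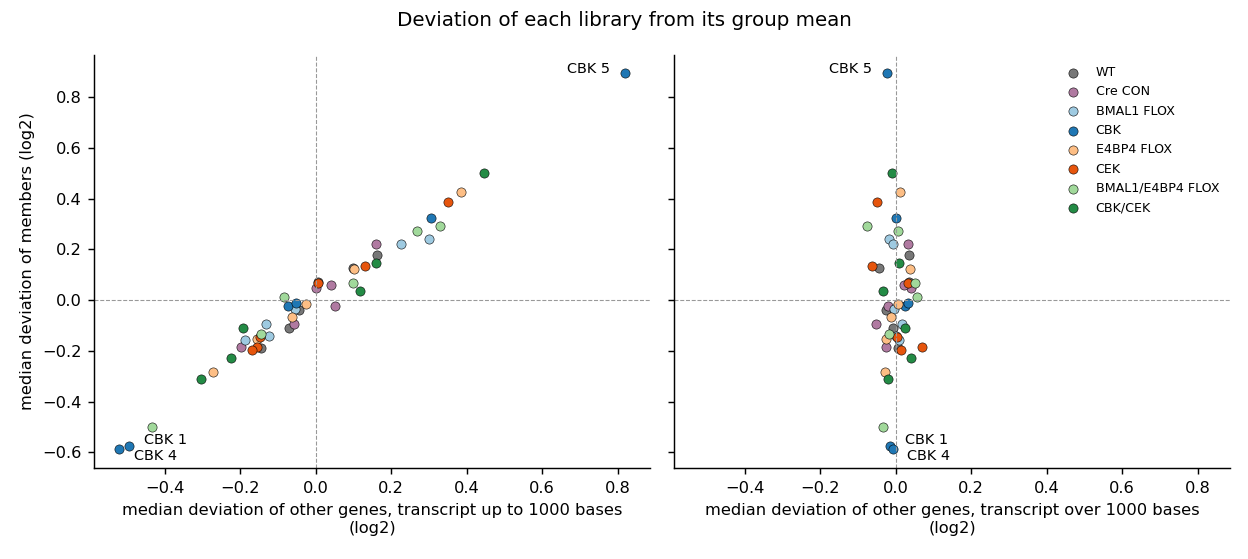
Median deviation from the group mean in each of the 48 libraries. The vertical axis (log2) is over the 75 members of at least 50 CPM with an annotated principal transcript. The horizontal axis is over other genes with principal transcripts of up to 1000 bases (left) and longer ones (right). Colours are groups. On the left the libraries run from CBK replicates 1 and 4 to CBK replicate 5, at 0.82 on the horizontal and 0.89 on the vertical axis. On the right all horizontal values lie between -0.08 and 0.07.

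**Figure D5:**
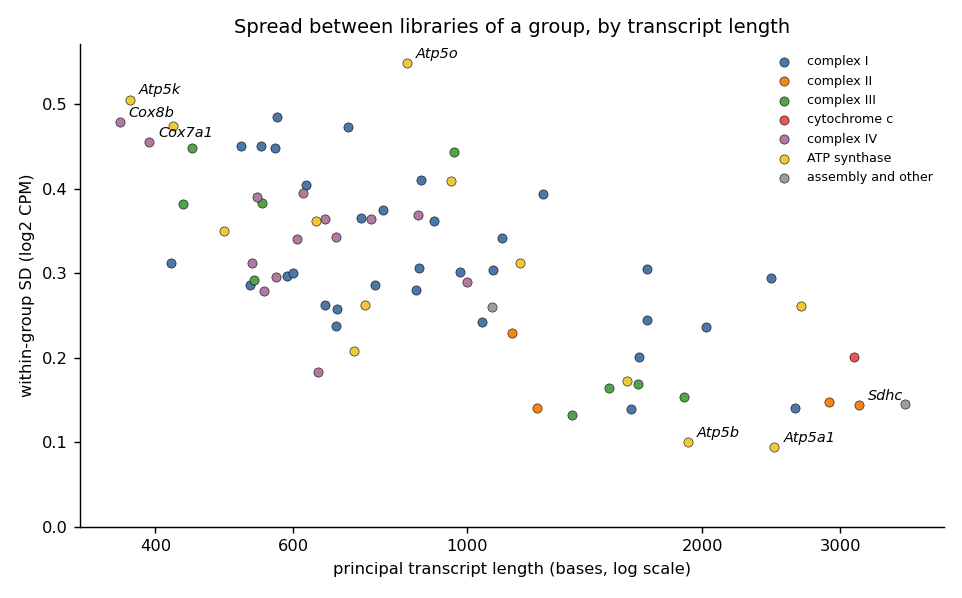
Within-group SD of each of 75 members (vertical, log2 CPM) against the length of its principal transcript (horizontal, log scale), coloured by complex. Members of up to 1000 bases have a median SD of 0.36 and longer ones of 0.20, with Atp5a1 and Atp5b lowest.

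The sum of the 13 mitochondrially coded mRNAs was lowest in CBK replicate 5 of all 48 libraries. It stood there at 73477 CPM per kb, against a CBK median of 123178. In 3 of the 8 groups the library with the lowest mitochondrially coded sum was the one with the highest nuclear-coded sum. In CBK/CEK the library with the lowest mitochondrially coded sum, 132581 CPM per kb, also held the lowest nuclear-coded sum, 20754 CPM per kb. In Cre CON and E4BP4 FLOX such a library lay below its group's median nuclear-coded sum, and in WT and CEK above it. A relation between the sums was not tested.

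Cardiomyocyte markers moved with the members in some libraries. Over 10 of 10 such markers, the summed level was 65018 to 121219 CPM in CBK, highest in replicate 5, and 73822 to 91709 CPM in BMAL1 FLOX. In CEK it was 63102 to 80899 CPM, against 68089 to 86347 CPM in E4BP4 FLOX. The highest CEK marker sum was in replicate 4, while the summed subunits were highest in CEK replicate 5. Of the 10 markers, Pln was called lower in CBK, at -0.49 (SE 0.09, adjusted p = 9.11e-05, edgeR). Without the 5 libraries that stand apart Pln stood at -0.50 (SE 0.09, adjusted p = 6.26e-05, edgeR). The part of these markers in the members' levels was not tested.

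Genes around the chain were read from lists chosen with earlier results of these data known. Of 19 regulators of respiratory gene transcription, 5 were called in CBK, all lower, where 4.35% of all genes were called lower. They were Klf15, a transcription factor of cardiac metabolism, at -0.59 (SE 0.10, adjusted p = 3.46e-05, edgeR), Gabpb1, a subunit of the ETS factor GABP, at -0.62, the estrogen-related receptors Esrrb at -0.48 and Esrra at -0.34, and the muscle coregulator Perm1 at -0.32. In CBK/CEK 1 of the 19, Klf15, was called, at -0.46 (SE 0.10, adjusted p = 0.00201, edgeR), where 2.9% of all genes were called lower. The median of the list was -0.20 in CBK and -0.15 in CBK/CEK. Without the 5 libraries that stand apart, 2 of the 5 passed in CBK, Klf15 at -0.56 and Gabpb1 at -0.48, while Esrrb stood at -0.38 (adjusted p = 0.116, edgeR), Perm1 at -0.25 (adjusted p = 0.0835, edgeR) and Esrra at -0.20 (adjusted p = 0.111, edgeR). Klf15 still passed in CBK/CEK. With all libraries, 1 of the 19 passed in the CBK effect minus the Cre CON effect: Klf15, at -0.54 (SE 0.15, adjusted p = 0.0269, edgeR). In that comparison 2.47% of all genes passed. Klf15 did not pass in the CBK/CEK effect minus the Cre CON effect.

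Assembly factors mostly did not pass. Over all genes tested 8.4% were called in CBK and 5.87% in CBK/CEK. No gene of the lists for complex I (20 tested, 8 of them members), complex II (4), complex III (6) and ATP synthase (4) was called in any of the 4 lines. Of 26 assembly and maturation factors of complex IV, Cox19, a copper-handling factor, was higher in CBK at 0.92 (SE 0.13, adjusted p = 2.19e-07, edgeR) and in CBK/CEK at 0.57 (SE 0.13, adjusted p = 0.0017, edgeR), and Fastk was lower in CBK at -0.35. Cox18, which inserts a mitochondrially coded subunit, was lower in the floxed controls than in WT, at -0.90 (SE 0.17, adjusted p = 0.00279, edgeR) in BMAL1 FLOX and -0.88 (SE 0.18, adjusted p = 0.00523, edgeR) in BMAL1/E4BP4 FLOX. These controls and WT belong to separate mouse lines, so allele and line cannot be told apart. Cox19, Fastk and Cox18 passed in the same comparisons without the 5 libraries. In the CBK effect minus the Cre CON effect Cox19 passed, at 0.81 (SE 0.18, adjusted p = 0.0034, edgeR), and Fastk did not. In the CBK/CEK effect minus the Cre CON effect no complex IV factor passed.

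Among genes that feed the chain, Coq10b, a coenzyme Q-binding protein, was lower in CBK at -1.39 (SE 0.10, adjusted p = 4.66e-16, edgeR) and in CBK/CEK at -0.56 (SE 0.10, adjusted p = 3.21e-05, edgeR), and the effects differed by 0.83 (SE 0.14, adjusted p = 0.000295, edgeR). Coq8a, a kinase-like protein of the pathway, was higher, at 0.39 in CBK and 0.50 in CBK/CEK. In all, 2 of 13 genes of this list were higher and 2 lower in CBK, and 1 was higher and 2 lower in CBK/CEK. For this list and those below, the shares over all genes tested were 4.05% higher and 4.35% lower in CBK. In CBK/CEK they were 2.97% higher and 2.9% lower. Idh2, the mitochondrial NADP-dependent isocitrate dehydrogenase, was lower at -1.04 (SE 0.08, adjusted p = 1.31e-14, edgeR) in CBK and -0.92 (SE 0.08, adjusted p = 1.53e-12, edgeR) in CBK/CEK. Of 18 genes of the cycle, 3 were lower in CBK, with Ogdh at -0.36 and Suclg2 at -0.27, and 1 in CBK/CEK. Of 26 genes of import and carriers, Slc25a20, the carnitine carrier, was lower in CBK at -0.31 and in CBK/CEK at -0.33, Chchd3 was lower in CBK at -0.29 and Timm22 higher at 0.39. Of 16 genes of mitochondrial DNA upkeep, Mgme1 was lower in CBK at -0.34, and of 11 mitochondrially coded subunits tested, mt-Nd1 was, at -0.57. Of 7 other donors of electrons to coenzyme Q none was called in any line. No gene of these lists was called in CEK or Cre CON. In the CBK effect minus the Cre CON effect, Coq10b at -1.31 (adjusted p = 9.39e-10, edgeR), Coq8a at 0.55 (adjusted p = 0.00161, edgeR) and Idh2 at -0.77 (adjusted p = 4.43e-06, edgeR) passed. In the CBK/CEK effect minus the Cre CON effect, Coq8a at 0.67 (adjusted p = 0.000141, edgeR) and Idh2 at -0.65 (adjusted p = 0.000169, edgeR) passed. The other genes of these lists passed in neither. When the 5 libraries were left out, Ogdh at -0.28 (adjusted p = 0.12, edgeR), Suclg2 at -0.22 (adjusted p = 0.114, edgeR), Timm22 at 0.26 (adjusted p = 0.193, edgeR) and Mgme1 at -0.29 (adjusted p = 0.0815, edgeR) did not pass in CBK. Of the coenzyme Q list, 1 of the 4 genes called in CBK and 1 of the 3 called in CBK/CEK did not pass without them: Coq6, a hydroxylase of the pathway, in CBK (adjusted p = 0.265, edgeR) and Coq10a in CBK/CEK (adjusted p = 0.0614, edgeR).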

How the data were processed

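The deposited counts are whole numbers of reads per gene, deposited by the authors. The submitters' processing notes name HTSeq 0.11.1, STAR 2.7.9a, bcl2fastq 2.18.0.12 and the build GRCm39, with no roles or settings. Per the labels' protocols, RNA was taken with an RNeasy kit and libraries were made with a SMARTer mRNA-Seq kit; strandedness is not given in the sources used here, so reads of a gene and of an overlapping antisense gene cannot be told apart. Gene names, types and lengths come from GENCODE M21, which matched 97.1% of gene IDs and 95.14% of counts. The members, lists, rule for named genes and alternatives were chosen with earlier results of these data known. Named are called members, per line the 3 with the smallest p where fewer than 3 were called, the highest and lowest of each complex, isoform pairs and called list genes; others were chosen after their values were seen.

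Counts were fitted over all 48 libraries with edgeR 4.0.16 in R 4.3.3 (1 mean per group, TMM, filterByExpr, robust quasi-likelihood), with p-values adjusted by Benjamini-Hochberg over 16623 genes in each of 12 contrasts. The spread is shared by the groups; fitted line by line, the biological coefficient of variation had a median of 23.1% for CBK and 14.3% for Cre CON. Isoform ratios used log2 of CPM plus 0.5. Alternatives were RLE scaling, DESeq2 1.42.0, voom with quality weights (limma 3.58.1), no filter, a filter of 1 CPM in 6 libraries, the line's groups alone, a replicate block, a covariate for animal numbers under 100, and leaving out libraries, 15 of them one at a time, added after the data were seen. The steps were tested on simulated data, where they recovered 93% to 96% of 2-fold changes and 64% to 76% of 1.5-fold changes over the lines. The labels call the libraries of a group biological replicates. Nothing in the sources used here says that a replicate number marks a pair of libraries. The correlations of same-numbered deviations ran from -0.169 to 0.253, which does not settle whether the numbers pair them. No 2 libraries were identical. The 5 summary lines for unassigned reads were left out of totals and tests, and assigned reads made up 53.0% to 73.1% of all lines.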

Additional observations from a re-analysis of the deposited data

Results flagged for a closer look

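Among 128 groups of 6 libraries examined for a library far from the others, 3 held one, where chance gives about 1 in 20 groups. Ndufs7 stood at 832.6 CPM in CBK replicate 5, with the next CBK library at 419.6. Ndufa4l2 stood at 31.7 CPM in CBK replicate 5, with the next at 20.4. Ndufs1 stood at 623 CPM in WT replicate 3, with the next at 538.5. The Cox6b2 effect differed between lines by the test of the difference itself: CBK minus Cre CON was -2.18 (SE 0.47, adjusted p = 0.00248, edgeR) and CBK minus CEK was -2.27 (SE 0.47, adjusted p = 0.00121, edgeR).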

How the results depend on the processing

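The number of members called in CBK was 2, and 4 with voom, 1 with the line's groups fitted alone, and 2 to 5 when CBK line libraries were left out in turn, with 5 without CBK replicate 1 (3 higher, 2 lower). In CBK/CEK it was 1, and 2 with voom (Cox6b2 and Ndufs7), 0 with the line's groups alone, and 1 to 2 with single libraries left out, 2 being without CBK replicate 5. In CBK voom also called Cox7c at -0.64 (SE 0.18, adjusted p = 0.0146, voom) and Ndufab1 at -0.42 (SE 0.13, adjusted p = 0.0262, voom), both lower. Sdhc in CBK and Cox6b2 in CBK and CBK/CEK kept their sign under every alternative. The cause of these shifts was not tested. With the replicate number as a block the counts were 2 for CBK, 1 for CBK/CEK and 0 for CEK and Cre CON, and the block changed no call. Low counts limit Cox6b2, which had 2 to 33 counts in CBK libraries, and no fold is given for Cox7b2 and Cox8c. Differences in summed level moved by less than 1 SD between libraries under the alternatives run for them, but several have no firm sign. On the log2 scale the values for CBK ran from -0.20 to 0.21 for complex I, -0.18 to 0.16 for complex III, -0.28 to 0.22 for complex IV and -0.20 to 0.07 for ATP synthase. For CEK they ran from -0.09 to 0.06, -0.09 to 0.02, -0.15 to 0.05 and -0.06 to 0.02 for the same 4 complexes. For the assembly factors and related proteins in CBK/CEK the range was -0.05 to 0.02. Without the 5 libraries that stand apart, a choice made for the lists after the data were seen, fewer list genes passed in CBK, as given with their values above.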
